A study of Mus musculus with 12 samples.

Results

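The genes described here are 35 genes of the endoplasmic reticulum (ER) and of the integrated stress response, read in 12 libraries of polyadenylated RNA from a mouse embryonic stem (ES) cell line. They were chosen by name as members of these pathways, with earlier results of these data known, and make up 36 of the 55335 rows of the count table, because Ddit3 has 2 rows. An ER folding arm of 18 genes holds chaperones, disulfide isomerases and regulators of the ER stress response. An ATF4 and amino acid arm of 17 genes holds the transcription factor gene Atf4, other stress regulators and enzymes of amino acid synthesis. The libraries come from days 0, 2, 4 and 6, with 3 per day. The labels name the cell line only as mESC, give no genotype or strain, and describe the same culture conditions for all 12 libraries, a LIF (leukaemia inhibitory factor) medium made with KnockOut Serum Replacement, gelatin-coated plates and irradiated embryonic fibroblasts as feeders. Any treatment that set the days apart is not given, and neither is the origin of the replicates. The p-values therefore rest on library-to-library spread alone, and part of that may be technical.

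Cells fold secreted and membrane proteins in the ER, and misfolded protein there is sensed by IRE1, ATF6 and PERK. IRE1 splices Xbp1 RNA into the form that encodes an active transcription factor, ATF6 is cut and moves to the nucleus, and both raise chaperone genes and genes that remove misfolded protein. PERK and 3 other kinases phosphorylate the translation factor eIF2alpha, which lowers protein synthesis overall but favours translation of ATF4. ATF4 in turn activates genes of amino acid synthesis and uptake, transfer RNA charging and stress control. Since splicing, cleavage and translation are not read by gene counts, the values below are RNA levels only.

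Total counts ran from 6945900 to 13266962 per library. Levels are given as CPM, each gene's counts over the library's total and multiplied by a constant, after scaling of the libraries by trimmed means, and fold changes are log2 values ± SE from a model of all 12 libraries (edgeR's quasi-likelihood test, Benjamini-Hochberg adjusted p over 16468 genes, threshold 0.05). All 35 members passed the filter on low counts. Pou5f1, a defining gene of pluripotent cells, was at 1468 ± 43.9 CPM at day 0 and 291 ± 14.2 CPM at day 6 (SD, n = 3 libraries). The 12 pluripotency markers together ran from 5755 to 5815 CPM at day 0, from 1924 to 1952 CPM at day 2, from 1044 to 1070.5 CPM at day 4 and from 854 to 886 CPM at day 6. In such bulk libraries fewer cells of a type and less RNA per cell cannot be told apart.

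The promoters of the members were searched for known control elements of both pathways. RefSeq promoter sequences (GRCm38.p6, from 250 bases before to 50 after the start) were found by symbol for 32 of the 35 genes, all but Manf, Hyou1 and Atf6. Each was searched on both strands for the ER stress response element (ERSE, CCAAT and CCACG with 9 bases of any kind between them), the element ERSE-II (ATTGG and CCACG with 1 base between them) and the core of the C/EBP-ATF response element that ATF4 binds (CARE, TGATGNAA). In the sequences below, printed 5′ to 3′ on the strand of the gene, the fixed letters of the match are in capitals. A match is a description and not a site of binding. Distances are from the start of the RefSeq promoter table, which can differ from the GENCODE gene span given with a gene, and the matches of Hspa5, Dnajb11, Asns, Atf3 and Nupr1 lie inside those spans. The first set holds the ERSE matches, all in genes of the ER folding arm. For Hspa5 the match is printed without neighbouring bases.
Hspa5, chr2:34772025-34772043, plus strand: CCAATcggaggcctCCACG
Hsp90b1, chr10:86705623-86705671, minus strand: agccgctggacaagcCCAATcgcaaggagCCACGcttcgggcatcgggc
Hsp90b1, chr10:86705518-86705566, minus strand: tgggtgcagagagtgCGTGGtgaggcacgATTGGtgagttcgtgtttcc
Calr, chr8:84847060-84847108, minus strand: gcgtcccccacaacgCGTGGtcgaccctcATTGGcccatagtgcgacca
Canx, chr11:50325785-50325833, minus strand: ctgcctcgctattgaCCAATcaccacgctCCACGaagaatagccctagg
Pdia6, chr12:17266476-17266524, plus strand: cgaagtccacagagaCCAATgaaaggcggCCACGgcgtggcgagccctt
Dnajc3, chr14:118937812-118937860, plus strand: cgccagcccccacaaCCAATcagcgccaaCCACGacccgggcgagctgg
Creld2, chr15:88819505-88819553, plus strand: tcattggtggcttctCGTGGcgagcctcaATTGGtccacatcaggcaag

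ERSE was found in 7 of 15 genes of the ER folding arm with a promoter (46.7%) and in 39 of all 32851 promoters of the table (0.119%). Its first base lay 65 bases before the start in Hspa5, 98 in Pdia6, 105 in Dnajc3, 126 in Creld2, 145 in Canx, 162 in Calr, and 107 and 212 in Hsp90b1. In Calr, Creld2 and the nearer match of Hsp90b1 the element runs on the opposite strand and reads as its reverse complement. ERSE-II was found in Herpud1 and Dnajb11, against 0.0365% of all promoters, in Dnajb11 from 7 bases past the start. The CARE core was found in 6 of 17 genes of the ATF4 and amino acid arm (35.3%), against 3.97% of all promoters. A gene of an arm counted if any of its promoters matched, while the shares of all promoters are per promoter (32851 promoters of 27025 genes). The members were chosen by name as genes of the pathways whose known elements were searched. The shares are therefore a description and not a test. No 2 matches in a promoter overlapped. The second set shows the CARE core where the ATF4 arm holds it and in Herpud1, with Trib3, Asns and Nupr1 given as the match alone. In Chac1, Atf3, Trib3, Nupr1 and Herpud1 it reads as its reverse complement.
Chac1, chr2:119351034-119351071, plus strand: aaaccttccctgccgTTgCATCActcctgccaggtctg
Pycr1, chr11:120643829-120643866, minus strand: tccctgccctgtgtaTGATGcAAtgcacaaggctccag
Atf3, chr1:191183421-191183458, minus strand: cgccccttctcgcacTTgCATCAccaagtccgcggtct
Trib3, chr2:152344039-152344046, minus strand: TTaCATCA
Asns, chr6:7693225-7693232, minus strand: TGATGaAA
Nupr1, chr7:126625573-126625580, minus strand: TTgCATCA
Herpud1, chr8:94386302-94386339, plus strand: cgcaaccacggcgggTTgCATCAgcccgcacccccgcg
Herpud1, which is listed with the ER folding arm, carries both elements, with its ERSE-II closer to the start:
Herpud1, chr8:94386362-94386402, plus strand: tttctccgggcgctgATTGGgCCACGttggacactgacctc

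By their medians, the ER folding arm rose and the ATF4 and amino acid arm fell between day 2 and day 4. As a summary of each library, the median over an arm's members was taken of log2 CPM minus the member's mean over the 12 libraries. For the ER folding arm it was 0.03, -0.02 and 0.06 in replicates 1, 2 and 3 of day 0, -0.14, -0.08 and -0.17 at day 2, 0.15, 0.16 and 0.09 at day 4, and 0.01, 0.01 and 0.09 at day 6. For the ATF4 and amino acid arm it was 0.43, 0.43 and 0.39 at day 0, 0.27, 0.36 and 0.33 at day 2, -0.24, -0.23 and -0.20 at day 4, and -0.38, -0.44 and -0.38 at day 6. The ER folding value minus the ATF4 value lay between -0.45 and -0.34 at day 0 and between -0.50 and -0.41 at day 2. It lay between 0.29 and 0.39 at day 4 and between 0.40 and 0.47 at day 6, so that no library of days 4 and 6 overlapped one of days 0 and 2. Since each member is set against its own mean, the sign of this difference is not a comparison of absolute levels. These medians are a description of the named genes and were not tested.

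**Figure D1:**
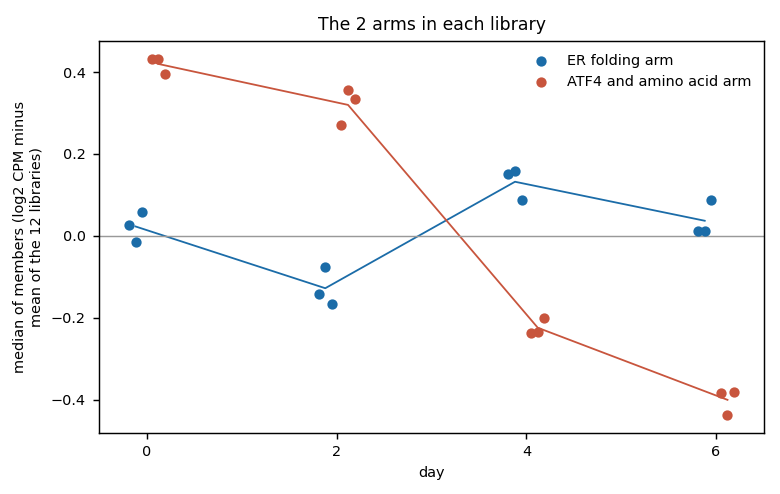
Median of each arm's members in each library (y axis, log2 CPM minus the member's mean over the 12 libraries) by day (x axis). Points are libraries and lines join the means of the days. The ATF4 and amino acid arm goes from 0.42 at day 0 to -0.40 at day 6, while the ER folding arm stays between -0.17 and 0.16 and is lowest at day 2.

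From day 0 to day 2, 10 of 18 genes of the ER folding arm fell and 5 rose, where 33.2% of all tested genes fell and 34.9% rose (68.1% in either direction). The median log2 change of the arm was -0.20, and that of all tested genes 0.02. Of the 17 genes of the ATF4 and amino acid arm 8 fell and 5 rose, with a median of -0.06. With libraries scaled by their size alone the ER folding arm had 8 falls and 6 rises at day 2 (median -0.066), and the ATF4 arm had 6 of each and a median above 0 (0.077). That scaling moves the log2 values of all genes at day 2 up by 0.132, and the shares of all tested genes given here are for trimmed-mean scaling. From day 2 to day 4 the calls went opposite ways. In the ER folding arm 13 of 18 rose and 0 fell (median 0.28), against 25.3% of all tested genes higher and 24.8% lower, 50.1% together (median 0.00). In the ATF4 and amino acid arm 15 of 17 fell and 0 rose (median -0.62). In edgeR the 0 falls and the 0 rises were also 0 at an unadjusted p under 0.05, and DESeq2 and limma-voom gave 0 of each at the adjusted threshold. From day 4 to day 6, 7 ER folding genes fell and 3 rose (median -0.10), and 10 ATF4 arm genes fell and 1 rose (median -0.31), where 19.3% of all tested genes fell and 23.6% rose, 42.9% together.

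Against day 0, day 4 had 10 of 18 ER folding genes higher and 3 lower (median 0.16), with 37.5% of all tested genes higher and 36.1% lower, 73.6% together. At day 6 the counts were 8 higher and 7 lower (median 0.01), with 39.4% and 37.5% of all genes, 76.9% together. The ATF4 and amino acid arm had 2 of 17 higher and 11 lower at day 4 (median -0.67) and 2 higher and 14 lower at day 6 (median -0.72). Scaling by library size alone gave the ER folding arm 14 higher and 2 lower at day 4 (median 0.29) and 9 higher and 6 lower at day 6 (median 0.11). It moves the log2 values of all genes up by 0.127 and 0.104 at these days. The shares of all tested genes given here are for trimmed-mean scaling and are not a background for those counts. The days compared with day 0 share its 3 libraries. By the F-test over the 4 days together every member passed, 18 of 18 and 17 of 17, as did 89.2% of all tested genes. The summed level of the ER folding arm was 9030.1 ± 225, 7139.7 ± 175, 9208 ± 145 and 8746 ± 80.8 CPM at days 0, 2, 4 and 6 (SD, n = 3). That of the ATF4 and amino acid arm was 1141 ± 10.1, 1122 ± 4.10, 779 ± 10.1 and 664 ± 5.99 CPM.

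**Figure D2:**
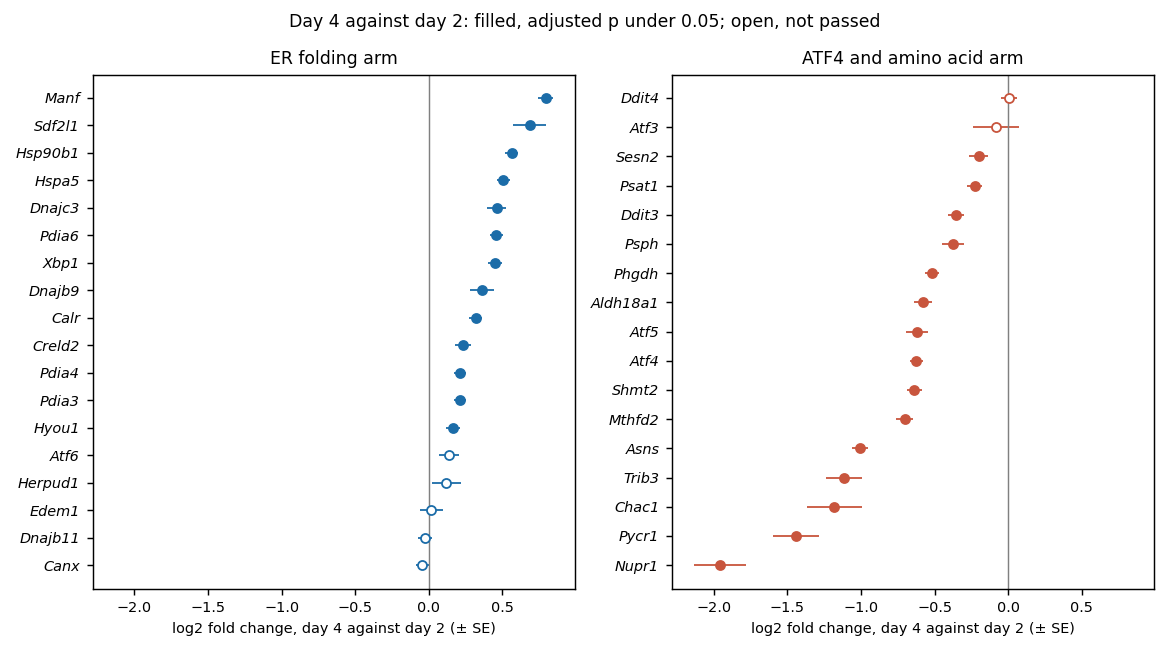
Log2 fold change of each member from day 2 to day 4 (x axis, ± SE from the model of 12 libraries), with genes of an arm ordered by it. Filled points passed adjusted p under 0.05. The 13 filled ER folding genes lie above 0, up to 0.79 for Manf, and the 15 filled ATF4 arm genes lie below 0, down to -1.96 for Nupr1.

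Among the ER chaperones, the genes with the highest levels dipped at day 2. Hsp90b1 (ENSMUSG00000020048, chromosome 10, 86690209 to 86705509, GRCm38), which encodes the ER paralog of HSP90 (GRP94), was at 2512, 2417 and 2504 CPM in the libraries of day 0. Day 2 libraries held 1551, 1587 and 1519.5 CPM, day 4 libraries 2290.0, 2326 and 2262 CPM and day 6 libraries 2112, 2159 and 2173 CPM. Every day 2 library lay below all others, and the libraries of days 4 and 6 lay below those of day 0. The fall to day 2 was log2 -0.67 ± 0.04, adjusted p = 2.61e-17 and the rise from day 2 to day 4 log2 0.56 ± 0.04, adjusted p = 2.09e-14. Hspa5 (ENSMUSG00000026864, chromosome 2, 34771970 to 34777547), which encodes BiP, the main ER chaperone and a standard readout of ER stress, was at 969, 938 and 1012 CPM in the libraries of day 0. The levels were 780.5, 825 and 798 CPM at day 2, 1157, 1130.5 and 1127 CPM at day 4 and 965, 926 and 986 CPM at day 6. Day 2 was the lowest and day 4 the highest without overlap, while days 0 and 6 overlapped. Hspa5 changed by log2 -0.28 ± 0.04, adjusted p = 4.21e-07 to day 2 and log2 0.51 ± 0.04, adjusted p = 9.6e-13 from day 2 to day 4, and its day 6 value against day 0 was log2 -0.02 ± 0.04, adjusted p = 0.667.

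Calr, which encodes calreticulin, a soluble lectin chaperone that stores calcium and binds sugar chains of new glycoproteins, was at 2316, 2292 and 2466 CPM in the libraries of day 0, at 1964, 2033 and 1897 CPM at day 2, at 2355, 2524 and 2480.5 CPM at day 4 and at 2267, 2363 and 2255 CPM at day 6. It followed the same course with smaller steps, log2 -0.26 ± 0.04, adjusted p = 2.32e-06 to day 2 and log2 0.32 ± 0.04, adjusted p = 1.25e-07 from day 2 to day 4. Canx, which encodes calnexin, the membrane-bound relative of calreticulin, was at 925, 917 and 980.2 CPM in the libraries of day 0. Later values were 682, 745 and 693 CPM at day 2, 659, 705 and 693 CPM at day 4 and 701, 713 and 711 CPM at day 6. Unlike Calr, it did not pass the test from day 2 to day 4 (log2 -0.04 ± 0.04, adjusted p = 0.433) and was still lower at day 6 than at day 0 (log2 -0.41 ± 0.04, adjusted p = 1.11e-10). All 9 later libraries of Canx lay below the 3 of day 0. Per kilobase of exon, Calr was the most abundant member, at 819 CPM per kb at day 0, followed by Hsp90b1 at 615, Hspa5 at 230.1 and Pdia6 at 229.6. Hyou1, which encodes a large chaperone that acts with BiP as a nucleotide exchange factor, ranged from 159 to 202 CPM over all libraries. Its steps were smaller than those of Hspa5 and Hsp90b1, log2 -0.17 ± 0.05, adjusted p = 0.00101 to day 2 and log2 0.16 ± 0.05, adjusted p = 0.00269 from day 2 to day 4.

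Genes of smaller stress-induced ER proteins alternated between the days. Sdf2l1 (chromosome 16, 17130138 to 17132383), which encodes a co-chaperone in BiP complexes, was at 26.3, 29.3 and 29.5 CPM in the libraries of day 0. At day 2 the values were 8.41, 10.3 and 9.18 CPM, at day 4 16.9, 13.8 and 13.8 CPM and at day 6 9.28, 9.51 and 9.77 CPM. Its libraries fell into an upper group at day 0, a middle group at day 4 and a lower group at days 2 and 6. Sdf2l1 fell 3.05-fold to day 2 (log2 -1.61 ± 0.10, adjusted p = 4.22e-17), rose 1.61-fold to day 4 (log2 0.69 ± 0.11, adjusted p = 2.51e-06) and fell again to day 6 (log2 -0.65 ± 0.11, adjusted p = 1.19e-05). Manf, which encodes a secreted ER stress factor with trophic activity, was at 105, 104 and 108 CPM in the libraries of day 0. Day 2 libraries held 77.4, 78.9 and 73.7 CPM, day 4 libraries 136, 139.7 and 121 CPM and day 6 libraries 89.8, 93.8 and 96.4 CPM. Each step of Manf changed sign from the one before, with log2 -0.46 ± 0.05, adjusted p = 7.81e-10, log2 0.79 ± 0.05, adjusted p = 3.66e-16 and log2 -0.51 ± 0.05, adjusted p = 1.01e-10. Creld2, which encodes a secreted ER stress protein, was at 135, 132 and 115 CPM in the libraries of day 0. The levels were 108, 112 and 109 CPM at day 2, 126, 123 and 137 CPM at day 4 and 93.6, 103 and 96.1 CPM at day 6. It ended lower than it began (log2 -0.39 ± 0.05, adjusted p = 3.87e-08), and 1 of its day 0 libraries, replicate 3 at 115 CPM, lay below the other two.

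**Figure D3:**
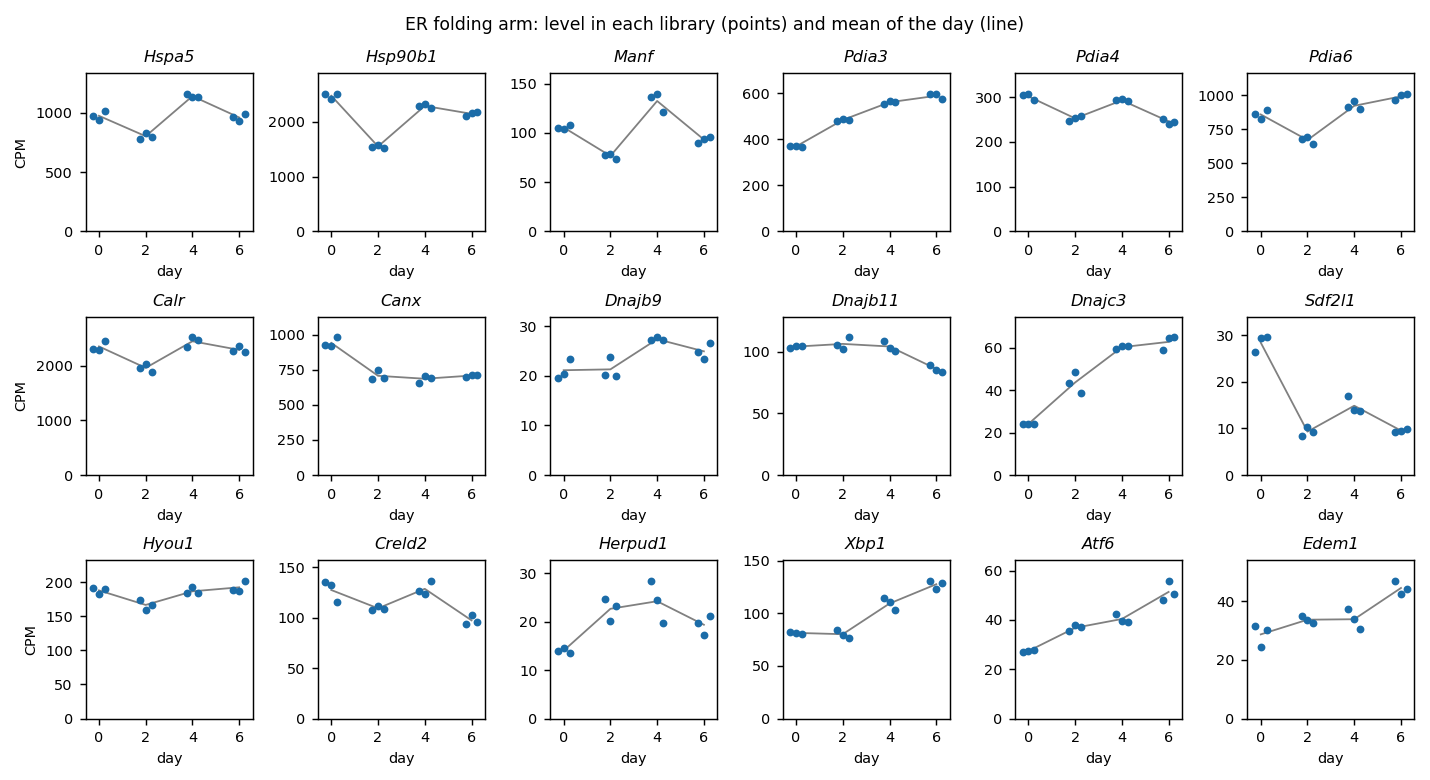
Levels of the 18 genes of the ER folding arm in CPM (y axes, each from 0 with its own scale) by day (x axes). Points are the 12 libraries and lines join the means of the 3 libraries of a day. Hsp90b1, Hspa5, Manf, Calr, Pdia4 and Pdia6 are lowest or low at day 2 and higher at day 4, while Pdia3, Dnajc3, Atf6 and Xbp1 are highest at day 6.

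The disulfide isomerases, which form and rearrange disulfide bonds, did not move together. Pdia3, which acts on glycoproteins with calnexin and calreticulin, was at 369.9, 369 and 367 CPM in the libraries of day 0, at 479.9, 489 and 481 CPM at day 2, at 552, 566 and 562 CPM at day 4 and at 595, 596 and 573 CPM at day 6. Its days did not overlap and each was above the one before, although the step from day 4 to day 6 did not pass the test (log2 0.07 ± 0.04, adjusted p = 0.162). Pdia3 was 1.60-fold higher at day 6 than at day 0 (log2 0.67 ± 0.04, adjusted p = 9.76e-18). Pdia4 was at 305, 307 and 292 CPM in the libraries of day 0. Later values were 247, 253 and 257 CPM at day 2, 292, 295 and 290.3 CPM at day 4 and 251, 241 and 245 CPM at day 6. Its days alternated, with days 0 and 4 above days 2 and 6, and day 6 was lower than day 0 (log2 -0.29 ± 0.04, adjusted p = 7.77e-08). Pdia6, another isomerase, which also acts on the sensor IRE1, went from 859.7 ± 33.5 CPM at day 0 to 672 ± 24.98, 923 ± 28.9 and 992 ± 25.2 CPM (SD, n = 3). It fell to day 2 (log2 -0.36 ± 0.04, adjusted p = 4.47e-09) and was higher at day 6 than at day 0 (log2 0.21 ± 0.04, adjusted p = 6.31e-05).

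The DnaJ co-chaperones stimulate BiP's ATPase, and they also differed. Dnajc3 (ENSMUSG00000022136, chromosome 14, 118937976 to 118981697), which encodes p58IPK, an ER co-chaperone also known to inhibit PERK, was at 24.2, 23.9 and 24.2 CPM in the libraries of day 0. At day 2 the values were 43.6, 48.5 and 38.9 CPM, at day 4 59.5, 60.7 and 60.8 CPM and at day 6 59.1, 64.5 and 64.95 CPM. This was the largest rise of the ER folding arm, 2.60-fold from day 0 to day 6 (log2 1.38 ± 0.07, adjusted p = 2.13e-19). The day 0 libraries lay below all others, and those of days 4 and 6 overlapped. Dnajb9, whose product holds IRE1 inactive, was at 21.1 ± 2.00, 21.3 ± 2.08, 27.4 ± 0.310 and 24.96 ± 1.69 CPM, with a rise from day 2 to day 4 (log2 0.36 ± 0.08, adjusted p = 0.000452). Dnajb11, an abundant BiP partner, was at 104 ± 0.736, 107 ± 4.87 and 104 ± 4.34 CPM at days 0, 2 and 4 and lower at 86.3 ± 2.83 CPM at day 6 (log2 -0.28 ± 0.05, adjusted p = 2.04e-05).

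The regulators and degradation genes of the ER arm were higher at day 6 than at day 0. Atf6 (chromosome 1, 170704674 to 170867771), which encodes the ER-bound sensor and transcription factor, was at 26.9, 27.3 and 27.97 CPM in the libraries of day 0. Day 2 libraries held 35.4, 37.8 and 37.3 CPM, day 4 libraries 42.6, 39.6 and 39.04 CPM and day 6 libraries 47.96, 55.8 and 50.3 CPM. Its days rose in order without overlap, although the step from day 2 to day 4 did not pass the test (log2 0.14 ± 0.07, adjusted p = 0.0858). Atf6 was 1.87-fold higher at day 6 than at day 0 (log2 0.90 ± 0.07, adjusted p = 2.89e-14). Xbp1 (chromosome 11, 5520659 to 5525893), whose RNA is spliced by IRE1, was at 82.5, 81.3 and 80.2 CPM in the libraries of day 0. The levels were 84.2, 79.3 and 76.8 CPM at day 2, 114, 110.4 and 103 CPM at day 4 and 131, 123 and 129 CPM at day 6. Xbp1 did not pass the test at day 2 (log2 -0.02 ± 0.05, adjusted p = 0.735) and then rose to day 4 (log2 0.45 ± 0.05, adjusted p = 9.85e-10) and to day 6 (log2 0.22 ± 0.05, adjusted p = 0.000304). Spliced and unspliced forms are counted together here. Herpud1, a membrane protein gene of ER-associated degradation, was at 14.04 ± 0.515 CPM at day 0. Its values were 22.7 ± 2.28, 24.3 ± 4.37 and 19.4 ± 1.99 CPM at days 2, 4 and 6. It was higher at day 6 than at day 0 (log2 0.47 ± 0.12, adjusted p = 0.000613). From day 4 to day 6 it fell (log2 -0.34 ± 0.10, adjusted p = 0.00703), a call lost without replicate 1 of day 4. Edem1, which encodes a lectin that passes misfolded glycoproteins to degradation, was at 28.6 ± 3.74 CPM at day 0 and 44.4 ± 2.31 CPM at day 6 (log2 0.63 ± 0.08, adjusted p = 5.17e-09).

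In the ATF4 and amino acid arm the transcription factor genes and the enzyme genes went different ways at day 2: 4 of 5 transcription factor genes rose and Nupr1 fell, while 7 of 8 enzyme genes fell and 0 rose. Of all tested genes 34.9% rose and 33.2% fell at that step. The difference between these groups was not tested. Atf4 (ENSMUSG00000042406, chromosome 15, 80255184 to 80257541, GRCm38) was at 149, 159 and 157 CPM in the libraries of day 0, at 232, 234 and 229 CPM at day 2, at 147, 149.7 and 155 CPM at day 4 and at 118, 128 and 119 CPM at day 6. The 3 libraries of day 2 stood above all others and those of day 6 below all others. Atf4 rose 1.49-fold to day 2 (log2 0.58 ± 0.04, adjusted p = 1.48e-14), fell 1.54-fold to day 4 (log2 -0.62 ± 0.04, adjusted p = 4.91e-15) and fell further to day 6 (log2 -0.31 ± 0.05, adjusted p = 8.13e-07). Atf5, a close relative of Atf4 that is likewise favoured in translation under stress, was at 12.7, 11.9 and 14.3 CPM in the libraries of day 0. Later values were 43.04, 45.3 and 38.6 CPM at day 2, 27.6, 25.5 and 30.4 CPM at day 4 and 19.2, 19.98 and 19.2 CPM at day 6. Its libraries were ordered without overlap as day 0, day 6, day 4 and day 2 from low to high. The rise to day 2 was 3.27-fold (log2 1.71 ± 0.09, adjusted p = 1.88e-19), and day 6 was still above day 0 (log2 0.58 ± 0.10, adjusted p = 3.99e-06). In the annotation Atf5 shares exonic bases with Nup62 and Il4i1 on the opposite strand, and the strand setting of the counting is not given in the sources used here.

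Ddit3 (chromosome 10, 127290774 to 127296288), which encodes CHOP, a factor known for promoting cell death under prolonged stress, was at 74.7, 72.1 and 68.3 CPM in the libraries of day 0. At day 2 the values were 92.00, 98.1 and 85.4 CPM, at day 4 69.3, 70.8 and 76.7 CPM and at day 6 70.1, 76.5 and 71.2 CPM. Only the day 2 libraries stood apart, with a rise of log2 0.36 ± 0.06, adjusted p = 7.84e-07 to day 2 and a fall of log2 -0.35 ± 0.06, adjusted p = 1.57e-06 to day 4. The second row named Ddit3 is a gene model whose 105 exonic bases all lie in exons of the first, and its values were 10.3 ± 1.82, 13.9 ± 0.637, 9.67 ± 0.683 and 8.55 ± 0.605 CPM. Atf3, a stress-induced transcription factor gene, was at 2.03, 3.68 and 3.29 CPM in the libraries of day 0. Day 2 libraries held 5.99, 5.71 and 6.18 CPM, day 4 libraries 5.81, 5.19 and 5.96 CPM and day 6 libraries 6.51, 6.59 and 6.31 CPM. These were low levels, from 18 to 87 counts per library, with every day 0 library below every later one and a 2.18-fold rise by day 6 (log2 1.13 ± 0.19, adjusted p = 1.24e-06). Nupr1 (ENSMUSG00000030717, chromosome 7, 126623249 to 126630861), a small chromatin-associated stress protein gene induced by ATF4, was at 20.1, 17.5 and 15.2 CPM in the libraries of day 0. The levels were 11.1, 10.9 and 10.3 CPM at day 2, 3.58, 2.59 and 1.85 CPM at day 4 and 1.95, 1.19 and 0.946 CPM at day 6. It had the largest change of all members, a 12.3-fold fall from day 0 to day 6 (log2 -3.62 ± 0.19, adjusted p = 7.17e-20), with 9 to 26 counts per library at day 6. The libraries of days 0, 2 and 4 were separate from each other, and those of days 4 and 6 overlapped.

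**Figure D4:**
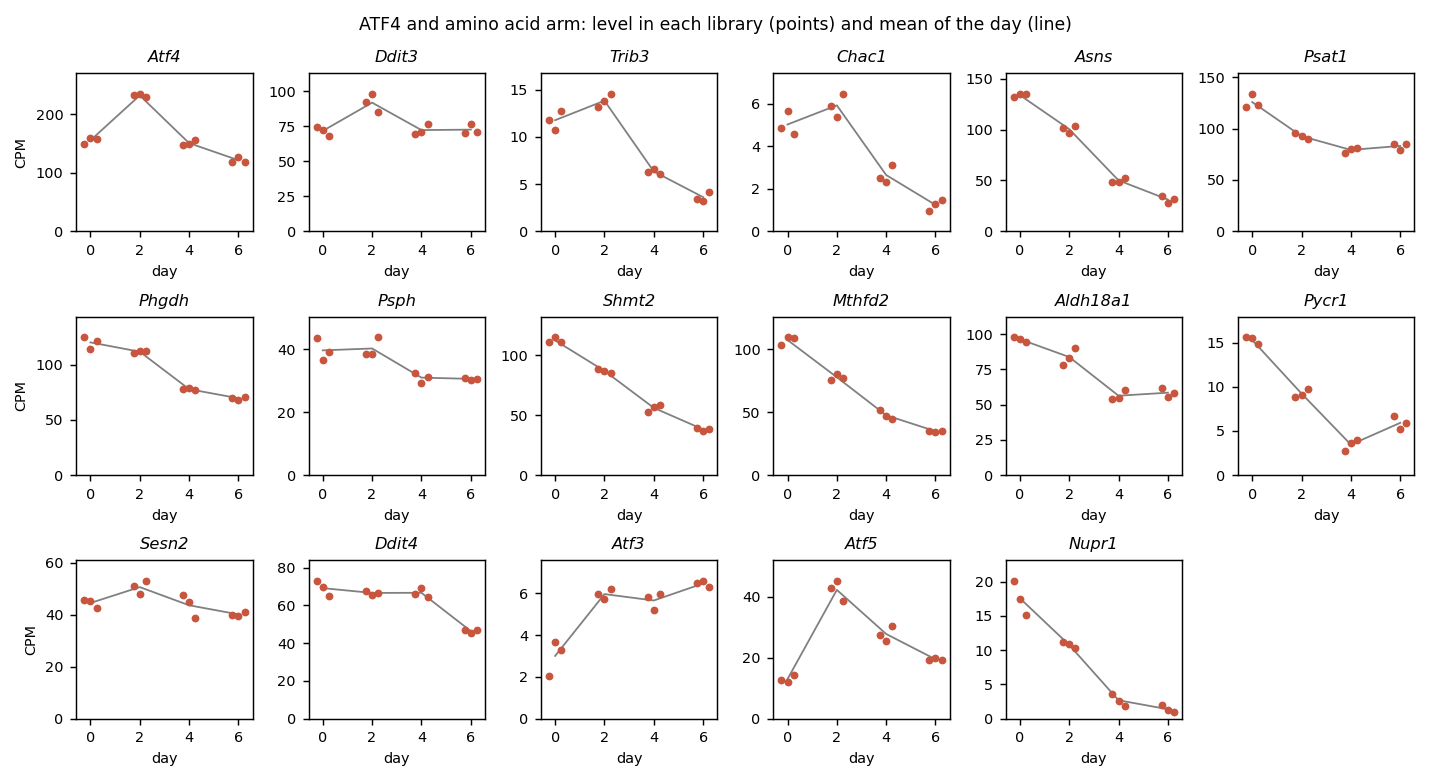
Levels of the 17 genes of the ATF4 and amino acid arm in CPM (y axes, each from 0 with its own scale) by day (x axes). Points are the 12 libraries and lines join the means of the 3 libraries of a day. Asns, Shmt2, Mthfd2, Nupr1, Trib3 and Chac1 end lowest at day 6, while Atf4, Atf5 and Ddit3 peak at day 2.

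Of the 8 genes of amino acid and one-carbon enzymes, 7 fell by day 2 and all 8 fell from day 2 to day 4, where 33.2% and 24.8% of all tested genes fell. The day 2 call of Phgdh, 1 of the 7, was lost without any 1 of 10 libraries. Asns (ENSMUSG00000029752, chromosome 6, 7675169 to 7693254), which makes asparagine and is a standard ATF4 target, was at 132, 135 and 134 CPM in the libraries of day 0, at 101, 96.6 and 103 CPM at day 2, at 48.98, 48.5 and 52.8 CPM at day 4 and at 34.5, 28.2 and 31.4 CPM at day 6. Its 4 days did not overlap, and it fell at each step, 1.33-fold to day 2 (log2 -0.41 ± 0.05, adjusted p = 3.79e-09), 2.01-fold to day 4 (log2 -1.01 ± 0.06, adjusted p = 5.71e-18) and 1.58-fold to day 6 (log2 -0.66 ± 0.07, adjusted p = 1.74e-10). Psat1, the transaminase of serine synthesis, was at 121, 134 and 123 CPM in the libraries of day 0. Later values were 95.3, 92.4 and 89.8 CPM at day 2, 76.1, 80.02 and 81.5 CPM at day 4 and 84.9, 79.1 and 85.3 CPM at day 6. It was lower than at day 0 in every later library and did not pass the test from day 4 to day 6 (log2 0.07 ± 0.05, adjusted p = 0.275). Phgdh, which starts serine synthesis from a glycolytic intermediate, went from 120.2 ± 5.26 to 112 ± 0.899, 77.9 ± 0.925 and 69.6 ± 1.35 CPM, with its main fall from day 2 to day 4 (log2 -0.52 ± 0.05, adjusted p = 8.51e-12). Psph, which ends that pathway, was at 39.7 ± 3.54 and 40.3 ± 3.06 CPM at days 0 and 2 and at 31.02 ± 1.72 and 30.6 ± 0.372 CPM at days 4 and 6 (log2 -0.38 ± 0.07, adjusted p = 4.42e-05 from day 2 to day 4). Psph shares 452 exonic bases with Cct6a on the opposite strand, and Hsp90b1 and Manf share 632 and 326 with other genes.

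The mitochondrial folate enzymes, which take a carbon from serine, had larger falls than the serine enzymes. Shmt2, which splits serine into glycine and that carbon, went from 112 ± 2.22 to 86.9 ± 2.02, 56.04 ± 2.75 and 38.1 ± 1.41 CPM, a 2.94-fold fall (log2 -1.56 ± 0.06, adjusted p = 2.38e-25). Mthfd2, the next enzyme, went from 107 ± 3.16 to 77.6 ± 2.62, 47.4 ± 3.804 and 34.7 ± 0.635 CPM, a 3.08-fold fall (log2 -1.62 ± 0.06, adjusted p = 5.21e-25). The difference between these enzymes and those of serine synthesis was not tested. In the proline branch, Aldh18a1, which makes the precursor, fell to day 4 (log2 -0.78 ± 0.06, adjusted p = 1.21e-14 against day 0) and went from 96.5 ± 1.52 CPM at day 0 and 83.8 ± 6.32 CPM at day 2 to 56.3 ± 3.39 and 58.5 ± 3.29 CPM at days 4 and 6. Pycr1, which completes proline, was the 1 gene of the arm that rose from day 4 to day 6 (log2 0.82 ± 0.17, adjusted p = 0.00018). The day 4 libraries of Pycr1 held only 28 to 38 counts each. Its libraries held 15.6, 15.5 and 14.8 CPM at day 0, 8.87, 9.08 and 9.73 at day 2, 2.71, 3.65 and 3.97 at day 4, and 6.66, 5.18 and 5.89 at day 6.

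Among the feedback and stress effectors, Trib3 and Chac1 fell from day 2 to day 4 and again to day 6. Trib3, a pseudokinase that restrains ATF4, was at 11.8, 10.8 and 12.8 CPM in the libraries of day 0. At day 2 the values were 13.2, 13.7 and 14.5 CPM, at day 4 6.29, 6.63 and 6.10 CPM and at day 6 3.44, 3.24 and 4.20 CPM. The test from day 0 to day 2 was not passed (log2 0.23 ± 0.11, adjusted p = 0.0643), and the gene then fell 2.16-fold to day 4 (log2 -1.11 ± 0.12, adjusted p = 6.22e-10) and 1.76-fold to day 6 (log2 -0.82 ± 0.16, adjusted p = 8.67e-05). Chac1, which degrades glutathione, was at 4.86, 5.64 and 4.56 CPM in the libraries of day 0. Day 2 libraries held 5.91, 5.39 and 6.46 CPM, day 4 libraries 2.52, 2.31 and 3.12 CPM and day 6 libraries 0.973, 1.30 and 1.47 CPM. It showed the same order of days, with no call at day 2 (log2 0.24 ± 0.17, adjusted p = 0.212), a 2.27-fold fall to day 4 (log2 -1.18 ± 0.19, adjusted p = 1.67e-06) and a further fall to day 6 (log2 -1.09 ± 0.27, adjusted p = 0.0011). Its day 6 libraries held 12 to 14 counts each. Sesn2, a leucine sensor that restrains mTORC1, was at 45.7, 45.03 and 42.7 CPM in the libraries of day 0. The levels were 51.00, 47.7 and 52.9 CPM at day 2, 47.4, 44.7 and 38.6 CPM at day 4 and 39.9, 39.3 and 40.99 CPM at day 6. These values lay within 38.6 and 52.9 CPM over all libraries. Ddit4, another inhibitor of mTORC1, was at 69.1 ± 4.00, 66.5 ± 1.02 and 66.6 ± 2.44 CPM at days 0, 2 and 4 and at 46.3 ± 0.942 CPM at day 6 (log2 -0.53 ± 0.06, adjusted p = 1.22e-09 from day 4).

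Per kilobase of exon the order of the arm changed. At day 0 the highest levels were 65.8 CPM per kb for Atf4, 48.9 for Asns, 48.4 for Phgdh and 41.9 for Ddit3. At day 6 they were 51.5 for Atf4, 42.4 for Ddit3, 28.0 for Phgdh and 26.4 for Ddit4, and Asns stood at 11.5. The lowest were Atf3 at 1.39 CPM per kb at day 0 and Nupr1 at 0.541 at day 6.

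Other genes of the same pathways were taken from lists written from general knowledge. Of 20 further ER chaperones, oxidoreductases and folding enzymes, 11 rose and 5 fell at day 2, and 15 rose and 3 fell at day 6 against day 0, with medians of 0.34 and 0.76. For these and the following lists, 34.9% of all tested genes rose and 33.2% fell at day 2, and 39.4% rose and 37.5% fell at day 6. The difference between this list and the ER folding arm was not tested. P4hb, the founding disulfide isomerase and a subunit of collagen prolyl hydroxylase, went from 302 ± 12.8 to 459.9 ± 11.8, 562 ± 20.01 and 665 ± 8.99 CPM. Txndc5 went from 158 ± 4.77 to 433 ± 6.24 CPM and Pdia5 from 27.3 ± 1.59 to 94.7 ± 3.75 CPM between days 0 and 6. Of 19 genes of ER-associated degradation, 12 rose and 1 fell at day 2 and 15 rose and 1 fell at day 6 (median 0.57). Erlin2 rose from 74.2 ± 3.40 to 164 ± 3.62 CPM and Derl1 from 33.1 ± 3.15 to 77.9 ± 2.08 CPM. Of 30 genes of translocation into the ER and of N-glycosylation, 17 rose and 4 fell at day 2 and 20 rose and 3 fell at day 6 (median 0.66). Stt3a, a catalytic subunit of oligosaccharyltransferase, rose from 148 ± 2.39 to 382 ± 20.5 CPM.

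Of 8 genes of ER sensors and signal proteases, 3 rose and 2 fell at day 2, near the 34.9% and 33.2% of all tested genes, and 4 rose and 2 fell at day 6 (median 0.20), against 39.4% and 37.5%. Creb3 and Creb3l2, which encode membrane-bound factors related to ATF6, rose from 9.68 ± 1.12 to 50.9 ± 1.65 CPM and from 29.2 ± 3.88 to 98.96 ± 2.84 CPM between days 0 and 6. The 2 that fell by day 6 were Eif2ak3, which encodes PERK, from 68.5 ± 1.48 to 49.4 ± 2.89 CPM, and Atf6b, from 25.8 ± 1.62 to 17.9 ± 0.830 CPM. Ern1, which encodes IRE1, was lower at day 4 (log2 -0.52 ± 0.13, adjusted p = 0.000467) and did not pass at day 6 (log2 0.14 ± 0.11, adjusted p = 0.275). Among 14 genes of eIF2alpha kinases, phosphatase subunits and eIF2B, 3 rose and 10 fell at day 6 (median -0.23), with Eif2b5, of the eIF2B exchange factor, down from 243 ± 9.82 to 102 ± 3.55 CPM.

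The share of all tested genes that fell, 33.2% at day 2 and 37.5% at day 6, applies to the further ATF4 targets and enzyme lists as well. Of 19 ATF4 targets listed and 16 tested, 5 rose and 8 fell at day 2 and 4 rose and 9 fell at day 6 (median -0.49). Slc7a5, a large neutral amino acid transporter gene, fell from 185 ± 3.18 to 37.8 ± 2.01 CPM, Eif4ebp1, a translation inhibitor gene, from 294 ± 6.01 to 107 ± 2.24 CPM, and Cbs, of the transsulfuration pathway, from 35.1 ± 2.87 to 0.895 ± 0.279 CPM. The 12 cytosolic aminoacyl-tRNA synthetase genes known as ATF4 targets had 1 rise and 10 falls at day 6 (median -0.68). Synthetase genes outside that set had 8 falls among 8 genes at day 6 (median -0.67). Eprs fell from 538 ± 11.7 to 295 ± 5.88 CPM, and Kars, of the second set, from 976 ± 26.7 to 495 ± 13.9 CPM. Of 20 serine, glycine, folate and proline enzyme genes outside the members, 4 rose and 14 fell at day 6 (median -0.64). Mthfd1, the cytosolic folate enzyme gene, fell from 604 ± 4.33 to 184 ± 4.75 CPM and Gldc, of glycine cleavage, from 89.5 ± 4.29 to 18.4 ± 1.51 CPM, while Glul, which makes glutamine, rose from 126 ± 6.64 to 460.5 ± 16.4 CPM.

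**Figure D5:**
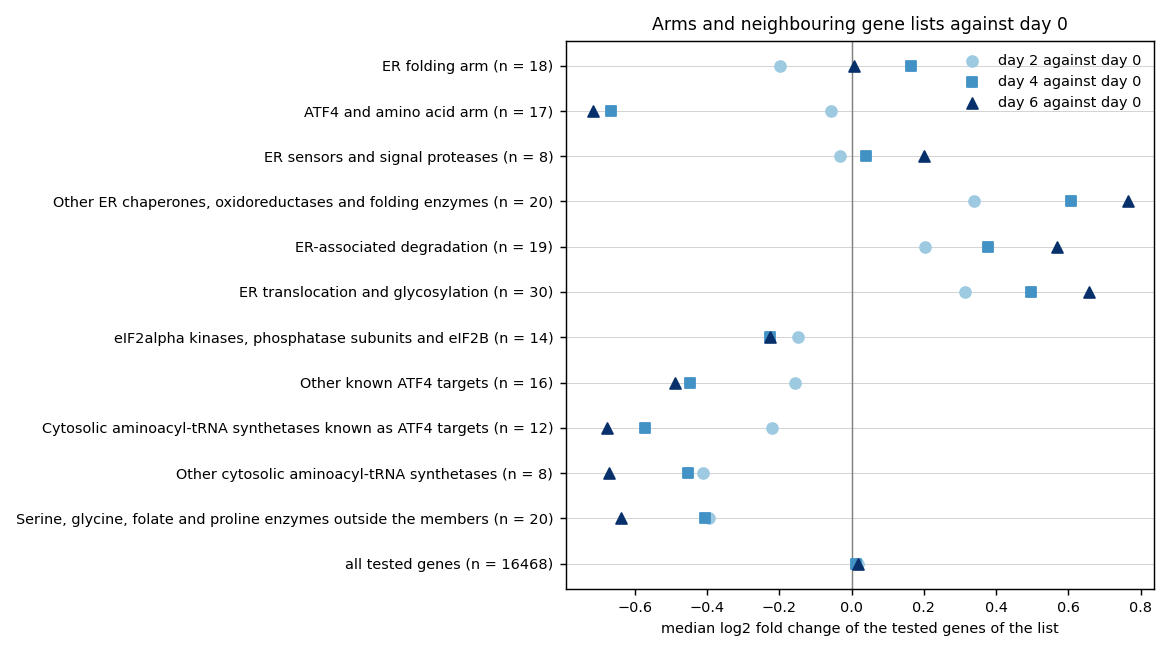
Median log2 fold change against day 0 (x axis) of the tested genes of each arm and list (y axis, with the number tested), with a marker for each of days 2, 4 and 6. The lists of ER folding, degradation and translocation genes outside the members lie above 0 at all 3 days, up to 0.76. Those of ATF4 targets, synthetases and amino acid enzymes lie below 0, down to -0.68, and the median of all tested genes is 0.02 or less.

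Markers of other cells moved over the same days. The 16 extraembryonic endoderm markers summed to 1570 to 1613 CPM over the libraries of day 0, 5087 to 5113 CPM at day 2, 11123 to 11248 CPM at day 4 and 15242 to 15917 CPM at day 6. All 16 were higher at each later day than at day 0, against 34.9%, 37.5% and 39.4% of all tested genes at days 2, 4 and 6. This list holds secreted matrix genes that other cells also express, such as Col4a1 and Sparc, which make up much of the sum. The 18 feeder fibroblast markers, of which 13 were tested, summed to 74.2 to 80.1 CPM at day 0, 56.2 to 57.5 CPM at day 2, 97.6 to 104 CPM at day 4 and 302 to 323 CPM at day 6. At day 6, 9 of the 13 were higher and 4 lower than at day 0, against 39.4% and 37.5% of all tested genes. Lum and Fap had no count at day 0, Dcn none at day 2 and S100a4 none at day 6. Col1a1 was at 5.89 ± 1.17 CPM at day 0 and 36.8 ± 2.26 CPM at day 6. The share of counts from mitochondrially encoded genes was 1.38 to 1.63% at days 0 and 2 and 1.98 to 2.54% at days 4 and 6, and that of the ribosomal RNA-overlapping model Gm42418 0.322 to 0.351% at day 2 and 1.41 to 2.92% at the other days. The part of these shifts in the levels of the members was not tested, apart from a fit without Gm42418 and the mitochondrial genes, which changed no call of a member.

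Some calls rested on 1 library or on the scaling. The fall of Phgdh at day 2 (log2 -0.11 ± 0.05, adjusted p = 0.0404) did not pass without any 1 of 10 libraries, all but replicate 2 of day 0 and replicate 2 of day 6 (adjusted p from 0.0518 to 0.195), and turned to 0.03 when libraries were scaled by their size alone. The fall of Sesn2 at day 6 (log2 -0.15 ± 0.07, adjusted p = 0.0492 against day 0) did not pass without any 1 of 9 libraries, all but replicate 3 of day 0, replicate 2 of day 2 and replicate 3 of day 4 (0.05 to 0.14). Its rise at day 2 (log2 0.18 ± 0.07, adjusted p = 0.0147) did not pass without replicate 3 of day 0 or of day 2 (0.0748 and 0.055), nor its fall from day 2 to day 4 without replicate 3 of day 4 (0.104). Against day 0, the day 4 calls of Hsp90b1 (log2 -0.11 ± 0.04, adjusted p = 0.0155) did not pass without replicate 1 of day 0 or replicate 3 of day 4 (0.0558 and 0.0598), and those of Pdia6 (log2 0.10 ± 0.04, adjusted p = 0.0348) without replicates 1 or 2 of day 0 or replicate 2 of day 4 (0.0789 to 0.199). The day 6 rise of Dnajb9 (log2 0.24 ± 0.09, adjusted p = 0.0153) did not pass without replicates 1 or 2 of day 0 or replicate 3 of day 6 (0.057 to 0.101). For Edem1, the rise at day 2 (log2 0.23 ± 0.08, adjusted p = 0.0142) did not pass without replicate 2 of day 0 or replicate 1 of day 2 (0.189 and 0.0519), and the rise at day 4 (log2 0.24 ± 0.09, adjusted p = 0.0104) without replicate 2 of day 0 or replicate 1 of day 4 (0.145 and 0.0986). Without replicate 1 of day 4, the falls from day 4 to day 6 of Herpud1 (log2 -0.21, adjusted p = 0.131) and Nupr1 (log2 -0.68, adjusted p = 0.1, against log2 -0.95 ± 0.28, adjusted p = 0.00599 with all libraries) did not pass. Scaling by library size alone moves log2 values against day 0 up by 0.132, 0.127 and 0.104 at days 2, 4 and 6. Under it Hyou1, Creld2 and Aldh18a1 at day 2 and Manf and Sesn2 at day 6 did not pass, Hsp90b1 at day 4 turned to 0.02, and the ATF4 arm median at day 2 turned to 0.08. From day 2 to day 4 its shift is -0.01. With no filter on low counts Phgdh at day 2, Hsp90b1 at day 4 and Sesn2 at day 6 did not pass, with DESeq2 Phgdh and Sesn2 at day 2, Dnajb9 and Sesn2 at day 6 and Sesn2 from day 2 to day 4, and with upper-quartile factors Pdia6 at day 4.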

How the data were processed

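RNA of 12 mouse ES cell libraries, 3 at each of days 0, 2, 4 and 6, was read as a gene count table. The deposited counts are whole reads per gene, not normalized, and the submitters' processing notes name FastQC 0.11.7, HISAT2 2.1.0, featureCounts 2.0.1, DESeq2 and the build mm10. The strand setting of the counting is not given in the sources used here. The members and lists were chosen with earlier results of these data known.

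Counts were tested with edgeR 4.0.16 (R 4.3.3) in a robust quasi-likelihood fit of all 12 libraries, with trimmed-mean scaling, edgeR's filter on low counts by day (16468 of 55335 genes kept) and Benjamini-Hochberg adjustment over those genes. Contrasts were days 2, 4 and 6 against day 0, day 4 against day 2 and day 6 against day 4, with an F-test over the days. SEs were derived from the test statistic. The fit was tested on simulated data. Arms and lists are described by counts and medians. The common biological coefficient of variation was 0.0415, which with 3 libraries a day sets the precision, and counting error adds to it for genes of few counts.

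All members are named. Values in every library are given for the 4 members with the highest and the 4 with the lowest log2 change per arm from day 0 to day 6 (in the ATF4 arm only Atf3 and Atf5 of the highest passed as rises) and for the 2 most abundant members, and for Hspa5, Manf and Pycr1, which were added after their values were seen. Of each other list, genes were taken from the 3 with the smallest F-test p, plus Pou5f1 and Col1a1. Eif2ak3, Atf6b and Ern1 were added after their values were seen. Gene positions and exonic lengths are from GENCODE M21 (GRCm38). Alternatives were other scalings, filters and tools (DESeq2 1.42.0, limma 3.58.1), pairwise fits, the replicate block, thinned counts, a threshold of 0.01 and each library left out. Fits without Gm42418 and mitochondrial genes and with both Ddit3 rows summed were chosen after seeing the data. Figures were drawn with matplotlib 3.10.9 (Python 3.11.15).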

Additional observations from a re-analysis of the deposited data

How the results depend on the processing

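Of 175 calls or non-calls of members, 16 lost the call or turned in direction under at least 1 of 25 alternatives, and no count of members moved by more than 1.5 times. The 16 do not include non-calls that became calls. Of 4375 member values under the alternatives, 4279 kept their call or non-call, 65 lost a call, 28 gained one and 3 turned in direction. Scaling by library size alone gave 9 of the gained calls. Scaling by library size alone turned the log2 changes of Phgdh at day 2 (0.026) and Hsp90b1 at day 4 (0.015) against day 0 and that of Hyou1 at day 4 (0.12). With it the ER folding medians against day 0 were -0.066, 0.29 and 0.11 at days 2, 4 and 6 and the ATF4 arm medians 0.077, -0.54 and -0.61. With no filter they were -0.15, 0.21 and 0.044, and -0.0044, -0.62 and -0.68. With upper-quartile factors the day 6 medians were -0.034 and -0.76. With thinned counts the ATF4 arm median was -0.78 at day 6 and -0.58 from day 2 to day 4. A change of scaling shifts all genes of a library alike by construction. Leaving out the filter and thinning the counts are not scalings, and the cause of the moves under them was not tested. With 1 library left out, the ATF4 arm median ran from -0.10 to -0.0143 at day 2, from -0.76 to -0.68 at day 6 and from -0.65 to -0.56 between days 2 and 4, and the ER folding median at day 4 from 0.11 to 0.19.

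No pairing of libraries by replicate number was seen: deviations of same-numbered libraries correlated between -0.038 and 0.034, with 0 of 18 pairs over 0.1. Taken over all tested genes, where counting error enters, such correlations cannot exclude a small shared effect. With the replicate block the ATF4 arm had 13 members lower at day 6 in place of 14, since Sesn2 missed the threshold (edgeR adjusted p = 0.0505), and the other counts of members were equal. Genes with few counts, such as Nupr1 and Chac1 at day 6, are limited by depth.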
